A study of Mus musculus with 8 samples.

Results

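The genes described here carry glucose into the cell, break it down to pyruvate and lactate, feed it through the pentose phosphate pathway and pass pyruvate into the mitochondrion. They are 33 genes taken by name from a list of glucose transporters, glycolytic enzymes, pentose phosphate enzymes, pyruvate carriers and pyruvate dehydrogenase subunits. All 33 were among the 15853 genes of the deposited RNA-seq comparison, and all 33 had an adjusted p-value. The cells were primary bone marrow-derived macrophages of mice, grown out of marrow for 7 days in medium conditioned by L929 fibroblasts and then exposed for 24 h to 10 nM insulin, 25 mM glucose and 250 uM C16:0 (palmitate). The knockout group (KO, 4 libraries) had the genotype Mirc11 fl/fl, Mirc22 fl/fl, Lyz2 Cre/Cre. The control group (fl/fl, 4 libraries) had the genotype Mirc11 fl/fl, Mirc22 fl/fl, Lyz2 +/+. Both groups thus carried loxP-flanked miRNA clusters, the source of miR-23, of miR-27 and of miR-24, and both received the same metabolic activation. Cre was present in the KO cells alone, inserted in both copies of the myeloid gene Lyz2, so loss of the miRNAs, presence of Cre and loss of Lyz2 cannot be told apart. The labels give no age, sex or number of animals. The design text speaks of biological replicates, without saying whether each came from its own animal, so p-values measure the spread between these libraries.

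Glycolysis converts a glucose molecule to pyruvate in the cytosol and yields ATP and NADH without oxygen. Its flux is set mainly at glucose entry, hexokinase, phosphofructokinase and pyruvate kinase. The oxidative branch of the pentose phosphate pathway, which begins with glucose-6-phosphate dehydrogenase, makes NADPH for lipid synthesis, glutathione reduction and the NADPH oxidase of phagocytes. The non-oxidative branch exchanges sugar phosphates with glycolysis and supplies ribose for nucleotides. Pyruvate that is not turned into lactate enters mitochondria through a carrier and becomes acetyl-CoA at the pyruvate dehydrogenase complex. Inflammatory macrophages are known for a high glycolytic rate, driven in part by the oxygen-sensitive factor HIF-1.

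Values per library could not be tied to samples by name, so each gene is given by a mean normalized count taken by the authors over the 8 libraries together and by their log2 fold change of KO over fl/fl, called the log2 ratio below, with its standard error (SE). The direction was read from Lyz2, which had a log2 ratio of -9.10 (SE 0.42) per the authors' deposited table, negative being taken as lower in KO, so Lyz2 gives no separate check of the labels. Group means are derived from the deposited mean and log2 ratio, with 4 libraries counted in each group. A gene is called where the authors' adjusted p (DESeq2, Benjamini-Hochberg) is under 0.05. Macrophage markers were abundant, from a mean normalized count of 13108 for Mertk to 311648 for Mpeg1 per the authors' deposited table. Of 10 such markers, 1 was called higher and 5 lower in KO (60%, against 23.0% of all genes tested). They had a median log2 ratio of -0.29 and a summed derived mean of 900487 in KO and 1014532 in fl/fl. Of 14 stromal and fibroblast markers, 13 were called higher and 0 lower in KO (92.9%). These had a median of 1.88 and a summed derived mean of 7559 in KO and 2060.05 in fl/fl. Of the markers of neutrophils and progenitors, 3 were tested and 0 called in either direction by DESeq2, with Kit at an unadjusted p of 0.0315. These 3 had a median log2 ratio of 1.09 and a median mean normalized count of 32.0. A count of 0 of 3 says little. The lymphocyte list had 1 tested marker, Ms4a1, at an adjusted p of 0.908. Among erythroid, endothelial and adipocyte markers, Pecam1 and Cdh5 were called higher and Kdr lower. The part of these marker differences in the members' values was not tested, and in bulk RNA fewer cells of a type and less RNA per cell cannot be told apart.

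Of the 33 genes 6 were called, 1 higher and 5 lower in KO. That is 18.2% of the members, a share near the 23.0% of all 14619 genes tested. By direction, 3.03% of the members were called higher, against 11.3% of all genes, and 15.2% were called lower, against 11.7% of all genes. G6pdx rose, and Pfkfb4, Pfkp, Hk1, Pdhb and Pgls fell. The median log2 fold change of the members was -0.01, against -0.00 over all genes tested, and 16 of the 33 had a positive value. The largest difference was that of G6pdx, at 39.3%. Of the 27 members that were not called, 26 had a 95% interval within 1.5-fold in either direction and 15 had one within 1.2-fold. Of all genes tested, called or not, 60.3% had an interval within 1.5-fold and 24.0% within 1.2-fold, and the median of the mean normalized counts was 6298 for the members against 1172 for all genes tested. The exception at 1.5-fold was Hk2. Summed over the members, the derived mean was 709753 in KO and 687915 in fl/fl, or 1.04% of the summed normalized counts of all genes in KO and 0.963% in fl/fl. The sum over all genes was itself lower in KO, at 68355593 against 71400901 in fl/fl. These sums include Lyz2, with a derived mean of 935 in KO and 511449 in fl/fl. Abundant genes weigh most in such sums, which have no SE, and the difference was not tested. Centring the fold changes on the summed means of all genes, a shift of -0.06, gave 3 members higher and 3 lower in place of 1 and 5. With Lyz2 left out of the sums, a shift of -0.05, the counts were 2 higher and 3 lower.

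**Figure D1:**
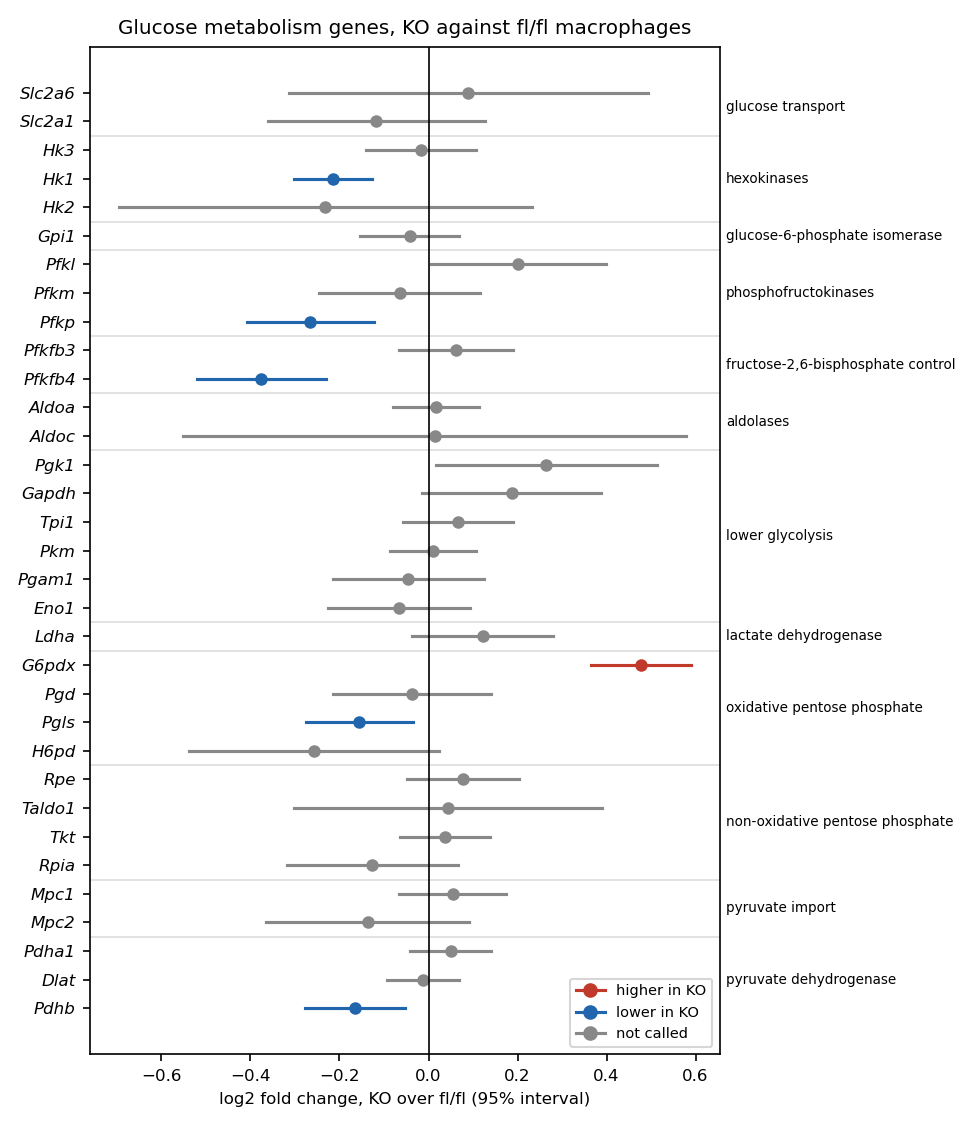
Log2 fold change (KO over fl/fl) of the 33 genes per the authors' deposited table, in pathway order, with lines for the 95% interval computed from the SE. G6pdx stands to the right of 0 at 0.48, Pfkfb4, Pfkp, Hk1, Pdhb and Pgls stand to the left, and the intervals of the other members are drawn in grey.

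At glucose entry 0 of 2 genes were called by DESeq2, with unadjusted p-values of 0.344 for Slc2a1 and 0.665 for Slc2a6. At a share of 23.0% called over all genes tested, a count of 0 of 2 says little. Slc2a1, which encodes the widely expressed transporter GLUT1, had a log2 ratio of -0.12 (SE 0.12) per the authors' deposited table, a fold of 0.922 with a 95% interval of 0.779 to 1.09. Slc2a6, a transporter found on lysosomes of macrophages, had the lowest mean normalized count of all members, 365, and a fold of 1.06 (0.804 to 1.41) per the authors' deposited table. Neither interval leaves out a difference of 1.2-fold.

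Hexokinases trap glucose in the cell as glucose-6-phosphate. Hk1 (ENSMUSG00000037012.18, chr10:62268855-62379908, minus strand of GRCm38), the form bound to the outer mitochondrial membrane, fell in KO, with a derived mean of 7735 in KO and 8972 in fl/fl. Its log2 ratio was -0.21 (SE 0.04, adjusted p = 4.07e-05) per the authors' deposited table, a fold of 0.862 with a 95% interval of 0.811 to 0.916. Hk3, which had the highest level of the family, had a derived mean of 30232 in KO and 30581 in fl/fl and a log2 ratio of -0.02 (SE 0.06, adjusted p = 0.887) per the authors' deposited table. Hk2, the inducible and HIF-responsive form, had a log2 ratio of -0.23 per the authors' deposited table, larger in size than that of Hk1, but an SE of 0.24 and a 95% interval of 0.618 to 1.17 for the fold. The Hk2 value therefore neither shows a fall nor leaves out one of the size seen for Hk1. Gpi1, which turns glucose-6-phosphate into fructose-6-phosphate, was at a fold of 0.971 (0.899 to 1.05) per the authors' deposited table.

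The step of phosphofructokinase held the lowest folds among the called members. Phosphofructokinase commits fructose-6-phosphate to glycolysis, and its activator fructose-2,6-bisphosphate is made and broken down by the bifunctional enzymes Pfkfb3 and Pfkfb4. Pfkfb4 (ENSMUSG00000025648.18, chr9:108991778-109032228, plus strand of GRCm38) had a derived mean of 2841 in KO and 3686 in fl/fl. Its log2 ratio was -0.38 (SE 0.07, adjusted p = 1.00e-05) per the authors' deposited table, a fold of 0.771 with a 95% interval of 0.697 to 0.852, the lowest of all members. Pfkfb3, the form with high kinase activity, was at a log2 ratio of 0.06 (SE 0.07, adjusted p = 0.535) per the authors' deposited table, with an interval of 0.955 to 1.14 for the fold. The Pfkfb4 and Pfkfb3 intervals do not overlap, though the difference between these genes was not itself tested.

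Of the phosphofructokinase subunits, Pfkp, the platelet type (ENSMUSG00000021196.14, chr13:6579768-6648777, minus strand of GRCm38), fell, with a derived mean of 5523 in KO and 6640.02 in fl/fl. Its log2 ratio was -0.27 (SE 0.07, adjusted p = 0.00258) per the authors' deposited table, a fold of 0.832 (0.753 to 0.918). Pfkl, the liver type, pointed the other way at a log2 ratio of 0.20 (SE 0.10) with an unadjusted p of 0.0435 and an adjusted p of 0.13 per the authors' deposited table, and passed the threshold with fold changes centred on the summed means (adjusted p = 0.0394). Over all alternatives the adjusted p of Pfkl ran from 0.0394 to 0.14. Pfkm, the muscle type, was at a log2 ratio of -0.06 (SE 0.09) per the authors' deposited table. Exons of Pfkp and of its neighbour Pitrm1 on the opposite strand share 748 bases of the 13401 annotated for Pfkp. Pitrm1 was higher in KO, at a log2 ratio of 0.26 (SE 0.04) per the authors' deposited table, and the sources used here do not say whether counting used strand.

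The shared lower steps of the pathway, from aldolase to lactate, had 0 of 9 genes called by DESeq2, and 1 of them, Pgk1, had an unadjusted p under 0.05. Of all genes tested 23.0% were called, and whether these 9 differ from that share was not tested. Aldoa, the main aldolase, had a mean normalized count of 72914 and a fold of 1.01 (95% interval 0.946 to 1.08) per the authors' deposited table. Pkm, which encodes the pyruvate kinase of most tissues, was the most abundant member, with a derived mean of 149965 in KO and 148894 in fl/fl and a fold of 1.01 (0.941 to 1.08) per the authors' deposited table. Together with Dlat, these were the 3 uncalled members whose interval lay within 1.1-fold in either direction. Aldoc was at the same estimate as Aldoa, 1.01, but with a far wider interval of 0.682 to 1.49 per the authors' deposited table.

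Pgk1, which encodes the first ATP-yielding enzyme of glycolysis, had the largest positive value among the glycolytic members. Its derived mean was 33498 in KO and 27889 in fl/fl, with a log2 ratio of 0.26 (SE 0.13, unadjusted p = 0.0369, adjusted p = 0.115) per the authors' deposited table. With fold changes centred on the summed means its adjusted p was 0.0449, but 0.0540 with Lyz2 left out of the sums, above the threshold. Over all alternatives its adjusted p ran from 0.0449 to 0.124. Gapdh, often used as a reference transcript, had a derived mean of 89693 in KO and 78819 in fl/fl, a log2 ratio of 0.19 (SE 0.10) and an adjusted p of 0.183 per the authors' deposited table. Ldha, which makes lactate, was at a log2 ratio of 0.12 (SE 0.08), Tpi1, the triose isomerase, at 0.07 (SE 0.06), Pgam1, the phosphoglycerate mutase, at -0.05 (SE 0.09) and Eno1, the enolase, at -0.07 (SE 0.08) per the authors' deposited table. Several of these genes have close copies that can share reads. The listed copy Pgam1-ps2 had a mean normalized count of 400.4 with a log2 ratio of 1.30 (SE 1.59), and Eno1b had a mean of 29.6, per the authors' deposited table, against 22605 for Pgam1 and 39585 for Eno1. Whether shared reads affect these values was not tested.

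The pentose phosphate pathway held the member with the smallest adjusted p. G6pdx encodes glucose-6-phosphate dehydrogenase, its first and rate-limiting enzyme, and is annotated at chrX:74409483-74429194, minus strand of GRCm38 (ENSMUSG00000031400.10). Its derived mean was 26822 in KO and 19262 in fl/fl. The log2 fold change was 0.48 (SE 0.06, adjusted p = 1.74e-14) per the authors' deposited table, a fold of 1.39 with a 95% interval of 1.29 to 1.51, and the call held under all 7 alternatives run (largest adjusted p 1.89e-14). G6pdx and Ikbkg, its neighbour on the opposite strand, share 418 exon bases of the 3080 annotated for G6pdx, and Ikbkg was at a log2 ratio of 0.10 (SE 0.06, adjusted p = 0.252) per the authors' deposited table.

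Of the later steps of the same branch, Pgls was called lower and Pgd was not called. Pgls (ENSMUSG00000031807.10, chr8:71592176-71601092, plus strand of GRCm38), the lactonase that follows G6pdx, fell, with a derived mean of 3798 in KO and 4231 in fl/fl. It passed narrowly at a log2 ratio of -0.16 (SE 0.06, adjusted p = 0.0481) per the authors' deposited table and missed the threshold without a filter on low values (adjusted p = 0.0522), with fold changes centred on the median (adjusted p = 0.0554) and with those centred on the summed means (adjusted p = 0.284). Exons of Fam129c, on the same strand, share 776 bases with Pgls, and the deposited comparison holds no value under the name Fam129c. Pgd, which makes the second NADPH of the branch, had a mean normalized count of 31037 and a fold of 0.975 (95% interval 0.862 to 1.10) per the authors' deposited table. H6pd, the enzyme of the endoplasmic reticulum that carries out the first steps there, was at a log2 ratio of -0.26 (SE 0.14, adjusted p = 0.187) per the authors' deposited table, with a fold interval of 0.688 to 1.02.

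In the non-oxidative branch 0 of 4 genes were called by DESeq2, and none of the 4 had an unadjusted p under 0.05. With 23.0% of all genes tested called, a count of 0 of 4 says little. Tkt, the transketolase, had a fold of 1.03 (95% interval 0.956 to 1.10), and Rpe, the ribulose-phosphate epimerase, a fold of 1.06 (0.967 to 1.15), per the authors' deposited table. Rpia, the ribose-phosphate isomerase, was at 0.916 (0.802 to 1.05) and Taldo1, the transaldolase, at 1.03 (0.811 to 1.31) per the authors' deposited table. The Taldo1 interval was wide for a gene with a mean normalized count of 29045.

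At the entry to mitochondria, Pdhb fell and its partner subunits were not called. Pdhb (ENSMUSG00000021748.9, chr14:8165996-8173025, minus strand of GRCm38) encodes the beta subunit of the E1 component of pyruvate dehydrogenase, which decarboxylates pyruvate. Its derived mean was 3335 in KO and 3738 in fl/fl, with a log2 ratio of -0.16 (SE 0.06, adjusted p = 0.022) per the authors' deposited table. It was no longer called when fold changes were centred on the summed means (adjusted p = 0.195), and over all alternatives the adjusted p ran from 0.0195 to 0.195. Pdha1, the alpha subunit of the same enzyme, was at a log2 ratio of 0.05 (SE 0.05) and Dlat, the acetyltransferase core of the complex, at -0.01 (SE 0.04) per the authors' deposited table. Of the pyruvate carrier subunits, Mpc1 was at a log2 ratio of 0.05 (SE 0.06) and Mpc2 at -0.14 (SE 0.12) per the authors' deposited table.

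The precision of the estimates differed widely among the members. The SE of each gene was set against the median SE of the 100 genes next below and the 100 next above it in mean normalized count. The ratio had a median of 0.969 over the members and ran from 0.526 for Dlat to 3.33 for Aldoc. It was above 2 for Aldoc, Hk2 (3.23) and Taldo1 (2.44), and above 1.5 for H6pd (1.78), Pgk1 (1.71) and Slc2a1 (1.55) as well. These are 6 of 33 members, against 14.5% of all genes tested, a share near that of other genes. The 6 called members had ratios from 0.613 for Hk1 to 1.02 for Pfkp. A gene such as Hk2, with an estimate of -0.23, was thus not called, while Pdhb was called at -0.16. Which libraries carry the wider spread was not analysed here. Exons of other members also overlap annotated genes, and the effect on their counts was not tested. On the opposite strand, Rpe shares 558 of 3113 exon bases with Kansl1l, Pdha1 603 of 3734 with Map3k15, Mpc1 480 of 2082 with 4930506C21Rik and Gpi1 741 of 6452 with Gm26762. Overlaps with genes called lower in KO were short, at 34 bases for Tpi1 with Spsb2, 68 for Gapdh with Iffo1 and 18 for Pfkm with Senp1. On the same strand, Pkm shares 767 of 5001 bases with Gm49759 and Pfkm 341 of 3340 with Gm26513. The remaining overlaps were of Hk1 with Hk1os (157 bases), Slc2a1 with Gm12868 (105), Hk3 with Unc5a (34), Aldoa with Fam57b (25) and Tkt with Mir3076 (1).

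**Figure D2:**
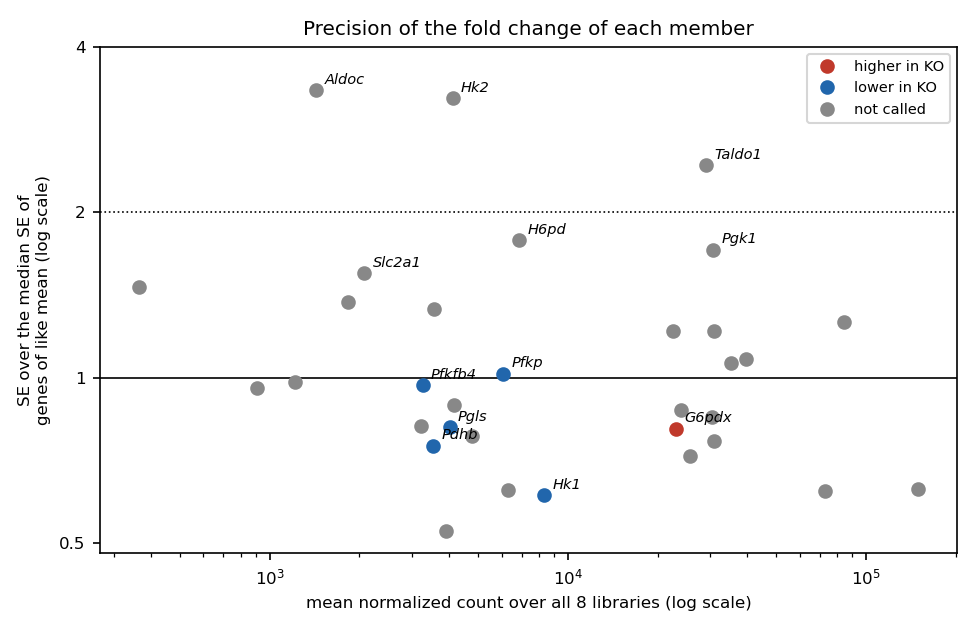
SE of the log2 fold change of each member over the median SE of genes of like abundance (vertical, log scale), against the mean normalized count over all 8 libraries (horizontal, log scale). Aldoc, Hk2 and Taldo1 lie above the dotted line at 2, and the 6 called members lie between 0.613 and 1.02.

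Levels of different genes were compared per kb, since a longer transcript gives more reads. Per kb of annotated exon, Pkm had the highest mean normalized count (29880 per kb), followed by Aldoa (25048 per kb) and Gapdh (20386 per kb). Slc2a6 had the lowest (114 per kb). Hk3 made up 83.2% of the hexokinase level per kb of exon and 71.2% per kb of coding sequence, Hk1 9.86% and 19.1%, and Hk2 6.93% and 9.68%. Aldoa supplied 98.3% of the aldolase level and G6pdx 85.1% of that of the glucose-6-phosphate dehydrogenases per kb of exon, with H6pd giving the other 14.9%. The order among phosphofructokinase genes depended on the length used, with Pfkl at 39.4% and Pfkp at 33.6% per kb of exon but Pfkp at 55.9% and Pfkl at 32.8% per kb of coding sequence. Pfkfb4 and Pfkfb3 changed order as well, with 54.9% and 45.1% per kb of exon against 48.1% and 51.9% per kb of coding sequence. Genes of the early steps, from transport to phosphofructokinase, were at lower levels per kb of coding sequence than each gene from aldolase to lactate other than Aldoc. Per kb of exon the same held for all of them except Hk3. The effective lengths used upstream are not known here, and these levels are a description with no test.

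**Figure D3:**
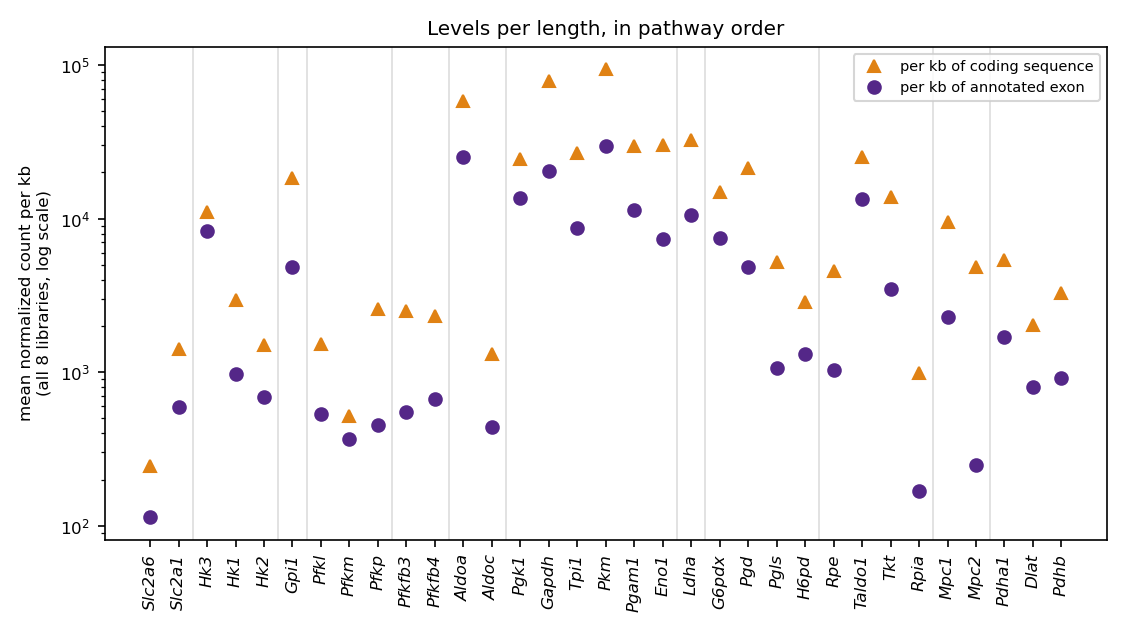
Mean normalized count over all 8 libraries per kb of annotated exon (circles) and per kb of coding sequence (triangles), on a log scale, for the 33 genes in pathway order. Pkm, Aldoa and Gapdh stand highest on both scales, and Hk3 stands above Hk1 and Hk2.

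Neighbouring pathways were examined from 6 lists taken whole, 110 genes in the table of which 108 were tested. Of these 35 (32.4%) were called, 20 higher and 15 lower in KO, against 23.0% of all genes tested. The share of the members themselves was 18.2%. No difference between lists was tested.

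Genes that make or use pentose phosphates and NADPH beside the members had 4 called higher and 2 lower of 12. That is 50%, against 23.0% of all genes tested, in a list of few genes. The median log2 fold change was 0.16, against -0.00 for all genes tested. Me1, the cytosolic malic enzyme and another source of NADPH, was at a log2 ratio of 0.79 (SE 0.11), and Dera, the deoxyribose-phosphate aldolase, at 0.57 (SE 0.05) per the authors' deposited table. Idh2, the mitochondrial NADPH-making isocitrate dehydrogenase, rose by 0.26 (SE 0.09) and Prpsap2 by 0.18 (SE 0.05) on the log2 scale per the authors' deposited table. Prpsap1, which like Prpsap2 associates with the enzyme of phosphoribosyl pyrophosphate synthesis, was lower at a log2 ratio of -0.34 (SE 0.06), and the ribokinase gene Rbks at -0.42 (SE 0.12), per the authors' deposited table. Idh1, the cytosolic NADPH-making enzyme with a mean normalized count of 20477, was at a log2 ratio of -0.08 (SE 0.08) per the authors' deposited table. Nnt was at a log2 ratio of 0.29 (SE 0.14, adjusted p = 0.109) and Me2 at -0.08 (SE 0.06, adjusted p = 0.404) per the authors' deposited table. G6pdx, Me1 and Idh2 were thus called higher, and Pgd, Idh1, H6pd, Nnt and Me2 were not called.

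Among other genes of glucose transport, glycolysis and hexose entry, 3 were called higher and 4 lower of 22, with a median of -0.03. The share called was 31.8%, against 23.0% of all genes tested. Slc2a3, the high-affinity transporter GLUT3, rose by 0.47 (SE 0.13) and Pgm1, a phosphoglucomutase, by 0.28 (SE 0.08) on the log2 scale per the authors' deposited table. Bpgm, which makes 2,3-bisphosphoglycerate, was at a log2 ratio of -0.49 (SE 0.12), Eno3, the muscle enolase, at -0.51 (SE 0.15), Pgm2l1 at -0.46 (SE 0.14) and the transporter gene Slc2a8 at -0.25 (SE 0.07) per the authors' deposited table. Slc2a3 had a mean normalized count of 396 and Slc2a1 one of 2076 per the authors' deposited table.

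The list of other pyruvate dehydrogenase, gluconeogenesis and glycogen genes had 4 higher and 4 lower of 20, with a median of 0.03. The share called was 40%, against 23.0% of all genes tested. Pygb, a glycogen phosphorylase, was at a log2 ratio of -0.40 (SE 0.05) and Phkg2, a subunit of the kinase that activates phosphorylase, at -0.40 (SE 0.11) per the authors' deposited table. Other subunits of that kinase were called higher, Phka2 at a log2 ratio of 0.16 (SE 0.06, adjusted p = 0.0304) and Phkb at 0.21 (SE 0.08, adjusted p = 0.049) per the authors' deposited table. Slc37a4 and Slc37a2, transporters of glucose-6-phosphate, were at a log2 ratio of -0.34 (SE 0.08) and -0.29 (SE 0.09), and the branching enzyme gene Gbe1 at 0.41 (SE 0.12), per the authors' deposited table. Pcx, pyruvate carboxylase, was at a log2 ratio of 0.85 (SE 0.27) per the authors' deposited table, with a mean normalized count of 176. Dld and Pdhx, the remaining subunits of the pyruvate dehydrogenase complex, were at a log2 ratio of 0.06 (SE 0.05) and 0.13 (SE 0.08) per the authors' deposited table and were not called.

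The tricarboxylic acid cycle list, which also holds the cytosolic Acly, had 4 called higher and 2 lower of 18, with a median of 0.02. The share called was 33.3%, against 23.0% of all genes tested. Suclg2, a subunit of the GTP-forming succinyl-CoA ligase, was at a log2 ratio of 0.73 (SE 0.06, adjusted p = 1.83e-26) and Acly, ATP citrate lyase, which makes cytosolic acetyl-CoA from citrate, at 0.32 (SE 0.08) per the authors' deposited table. Idh3a was at a log2 ratio of 0.22 (SE 0.08) and Sdha at 0.13 (SE 0.04) per the authors' deposited table. Of their partner subunits, Idh3g was called lower at -0.25 (SE 0.07) and Sdhb at -0.28 (SE 0.09) per the authors' deposited table. Idh3b at 0.01 (SE 0.08), Sdhc at 0.02 (SE 0.04) and Sdhd at -0.12 (SE 0.05) were not called.

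Regulators and other targets of HIF gave 2 called higher and 1 lower of 21, with a median of -0.00. The share called was 14.3%, against 23.0% of all genes tested. Hif1a itself was at a log2 ratio of 0.17 (SE 0.11, adjusted p = 0.251) per the authors' deposited table. P4ha2 (log2 ratio 0.81, SE 0.19) and P4ha1 (-0.24, SE 0.07), which both encode collagen prolyl hydroxylase subunits, were called in opposite directions per the authors' deposited table. Mif was called higher at a log2 ratio of 0.38 (SE 0.12) per the authors' deposited table. The part of the 13 stromal markers called higher (median 1.88) in the P4ha2 value was not tested. The list's median SE ratio was 1.24, against 0.969 for the members and 1 for all genes tested.

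Of 15 glucose-sensing and MYC regulators, 3 were called higher and 2 lower, with a median of 0.03. The share called was 33.3%, against 23.0% of all genes tested. Nfe2l2, which encodes the antioxidant response factor NRF2, rose by 0.35 (SE 0.08) on the log2 scale per the authors' deposited table. Arrdc4, which restrains glucose uptake, was at a log2 ratio of 0.46 (SE 0.11), and its relative Txnip, with a mean normalized count of 61400, at 0.03 (SE 0.11) per the authors' deposited table. Mlxip, a glucose-sensing transcription factor, was at a log2 ratio of -0.20 (SE 0.07) and the kinase gene Stk11 at -0.21 (SE 0.05) per the authors' deposited table. Prkaa2, an AMPK subunit with a mean of 49.5, was at 1.32 (SE 0.36) per the authors' deposited table. The AMPK subunits Prkaa1 (mean 5768) at 0.08 (SE 0.06), Prkab1 at 0.13 (SE 0.08) and Prkag1 at -0.00 (SE 0.07) were not called. Myc was at a log2 ratio of 0.13 (SE 0.18, adjusted p = 0.642) per the authors' deposited table.

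**Figure D4:**
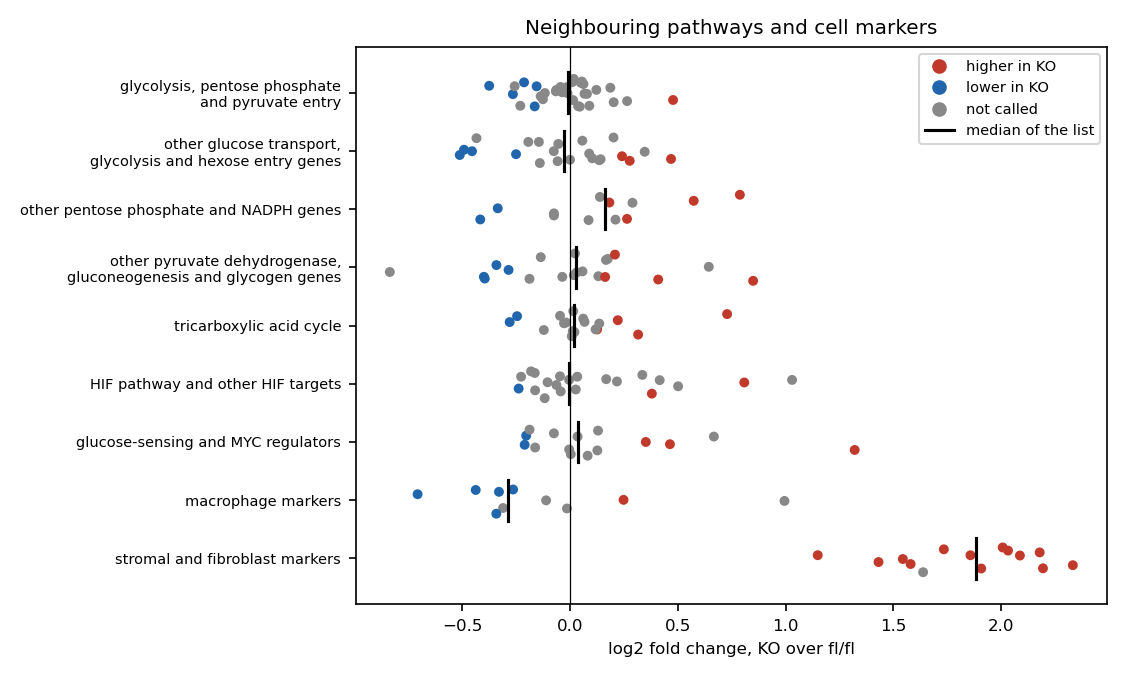
Log2 fold change (KO over fl/fl) of each tested gene per the authors' deposited table, by list, coloured by call, with a bar at each list's median. The glycolysis, pentose phosphate and pyruvate entry genes lie near 0 with a median of -0.01, whereas the stromal and fibroblast markers have a median of 1.88.

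Seed matches to the miRNAs of the clusters were sought in the longest annotated 3' UTR of each member, since KO cells were made to lack these miRNAs. The mature sequences below are those of RefSeq (GRCm38.p6), with the seed, bases 2 to 8, in capitals. miR-27a and miR-27b share their seed, and miR-24 is the same in both clusters.
mmu-miR-23a-3p: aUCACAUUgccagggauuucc
mmu-miR-27a-3p: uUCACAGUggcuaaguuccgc
mmu-miR-27b-3p: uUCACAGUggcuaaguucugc
mmu-miR-24-3p: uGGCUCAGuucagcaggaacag

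At least 1 match of 7 or 8 nucleotides was present in 14 of 33 members (42.4%), against 53.4% of 13094 tested genes with an annotated 3' UTR. The members' 3' UTRs were shorter, with a median of 724 nucleotides against 1166. For miR-24 the share was 24.2% of members against 26.3% of genes, for miR-23 it was 21.2% against 24.6%, and for miR-27 it was 9.09% against 28.8%. The members with a match had a median log2 ratio of 0.01 with 2 of 14 called (G6pdx higher, Hk1 lower), and the 19 without one had a median of -0.04 with 4 called, all lower. Over all genes the medians were 0.02 with a match and -0.04 without one. Of all genes tested 23.0% were called, and whether members with and without a match differ in calls was not tested.

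The 8-nucleotide matches, which pair with the seed and have an A opposite the first base of the miRNA, lay in 6 members and are printed with the match in capitals, on the transcribed strand of GRCm38. The first 4 are for miR-24, then 1 for miR-27 in Pdha1 and 1 for miR-23 in Dlat.
G6pdx, chrX:74409926-74409933: actggccctatCTGAGCCAcccatctttcc
Pfkl, chr10:77987666-77987673: gatcttaaccgCTGAGCCAtctctccagtc
Pkm, chr9:59679016-59679023: cagggccctacCTGAGCCAggggtggagga
H6pd, chr4:149981154-149981161: aatgtcttgctCTGAGCCAggccagcagag
Pdha1, chrX:160122990-160122997: aggcttggctcACTGTGAAgactcctgcat
Dlat, chr9:50634847-50634854: aaatctgatcaAATGTGAAattgaaaaatg

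The G6pdx match lies in exon 13, at position 274 of a 3' UTR of 724 nucleotides. The same 8 letters stand in Pfkl, Pkm and H6pd, whose log2 fold changes were 0.20 (SE 0.10), 0.01 (SE 0.05) and -0.26 (SE 0.14) per the authors' deposited table, none of them called. Pfkl has 4 miR-24 matches in all and H6pd 3, beside 1 each in G6pdx and Pkm. Among all 1144 tested genes with an 8-nucleotide miR-24 match, 16.1% were called higher in KO and 8.48% lower, against 11.3% and 11.7% of all genes tested. The 1144 were drawn from the 13094 tested genes with an annotated 3' UTR, whereas the second shares are over all 14619. The length of the 3' UTR was not matched, and the difference was not tested. Pdha1, with 3 matches for miR-27 and 1 for miR-23, and Dlat had folds of 1.04 (95% interval 0.972 to 1.10) and 0.992 (0.938 to 1.05) per the authors' deposited table. Pfkfb3 holds a match for each of the 3 miRNAs in a 3' UTR of 3063 nucleotides and had a fold of 1.04 (0.955 to 1.14) per the authors' deposited table. A match of the seed is a description of the sequence, and binding was not measured.

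**Figure D5:**
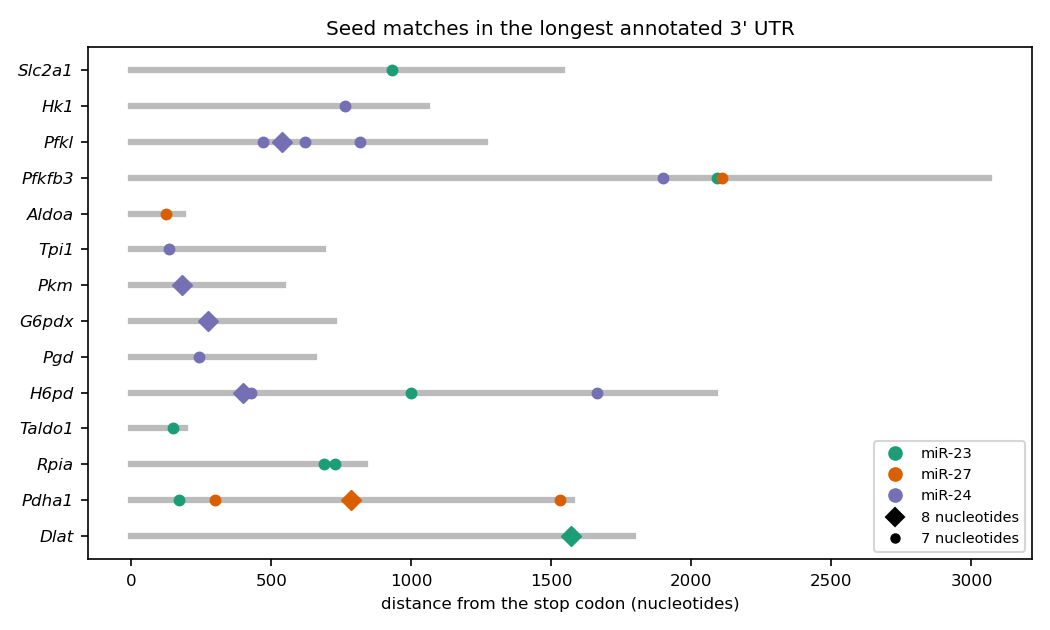
Position of seed matches for miR-23, miR-27 and miR-24 in the longest annotated 3' UTR of the 14 members that have one, in nucleotides from the stop codon (grey bars give the length of the UTR). Diamonds mark the 8-nucleotide matches, of which G6pdx has 1 at 274 nucleotides.

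Promoters were read from RefSeq (GRCm38.p6), 250 bases before to 50 after each annotated start, for all 33 members in 47 windows. They were searched on both strands for the HIF core letters ACGTG and GCGTG, the E-box CACGTG, which contains ACGTG, and the antioxidant element TGACNNNGC. ACGTG stood in 38.3% of the members' windows, against 24.6% of 13570 windows of tested genes, and GCGTG in 59.6% against 48.4%. CACGTG stood in 6.38% against 9.47%, and TGACNNNGC in 12.8% against 14.3%. Some genes have several windows, in part overlapping, so shares per gene are given as well. ACGTG was found in 45.5% of members against 28.5% of genes, and GCGTG in 69.7% against 54.0%. CACGTG was found in 9.09% of members against 11.3%. For TGACNNNGC it was 18.2% against 16.9%, the reverse of its order per window. No difference was tested. TGACNNNGC was found in windows of G6pdx, Pgd, Hk1, Pdhb, Aldoa and Mpc1. Of these, G6pdx was called higher, Hk1 and Pdhb lower, and Pgd, Aldoa and Mpc1 were not called. These are few genes, beside the 23.0% called of all genes tested. The windows of the member called higher and of the one with the lowest fold are printed 5' to 3' on the strand of the gene, with each match on either strand in capitals.
G6pdx, chrX:74428831-74429130, minus strand: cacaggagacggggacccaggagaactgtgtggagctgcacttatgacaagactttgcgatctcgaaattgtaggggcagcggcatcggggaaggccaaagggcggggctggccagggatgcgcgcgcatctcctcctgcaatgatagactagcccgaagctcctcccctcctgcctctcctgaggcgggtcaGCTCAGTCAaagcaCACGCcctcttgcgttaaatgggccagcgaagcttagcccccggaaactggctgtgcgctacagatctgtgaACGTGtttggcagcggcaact
Pfkfb4, chr9:108991652-108991951, plus strand: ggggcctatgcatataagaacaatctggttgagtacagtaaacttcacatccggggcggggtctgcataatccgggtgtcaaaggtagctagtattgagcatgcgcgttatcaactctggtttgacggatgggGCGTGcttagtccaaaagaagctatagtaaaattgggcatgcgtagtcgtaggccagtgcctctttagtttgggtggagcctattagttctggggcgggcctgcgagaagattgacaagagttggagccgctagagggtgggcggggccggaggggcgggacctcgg

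The G6pdx window holds 1 match to each HIF core and 1 to the antioxidant element, and the Pfkfb4 window holds 1 match to GCGTG. Windows of 15 members held ACGTG, those of G6pdx, Hk1, Pdhb and 12 uncalled members (Slc2a1, Hk2, Hk3, Pfkm, Pfkfb3, Aldoa, Aldoc, Gapdh, Pgk1, Pgam1, Pkm and Ldha). GCGTG was held by windows of 23 members, among them all 6 called members (G6pdx, Pfkfb4, Pfkp, Hk1, Pdhb and Pgls). Of all genes tested 23.0% were called, and calls by motif were not tested. These matches describe the letters of the windows, and occupancy by any factor was not measured.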

How the data were processed

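Polyadenylated RNA of 8 libraries, 4 per genotype, was sequenced. The submitters' processing notes name the tools DESeq2, Salmon, cutadapt and FastQC and the build mm10, with versions, settings and roles not given in the sources used here. Per the file headers, the deposited comparison gives the authors' mean normalized count (a signal over all libraries), log2 fold change and its SE in log2 units, Wald score, p-value and adjusted p-value. Recomputing the Benjamini-Hochberg adjustment gave each deposited adjusted p-value to within 5.7e-09. Further columns of values per library (8) match no sample label and were not used, so depth per library is unknown here and no replicate-level check was made.

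Intervals (95%) are the fold change with its SE under a normal approximation. Positions, lengths and 3' UTRs were read from the GENCODE M21 annotation (build GRCm38, as in mm10), where 32 members matched 1 gene and Aldoa took the gene of lower number. Alternatives changed the filter, threshold, centring or minimum fold. P-values were readjusted over the genes kept by the filter, and for the centrings over the genes with a deposited adjusted p. The stricter threshold and the minimum fold used the deposited adjusted p. Computation used Python 3.11.15, pandas 2.3.3 and scipy 1.17.1, tested on simulated data. The members and lists were chosen with earlier results of these data known. Every member is named. From the other pathway lists, up to 6 called genes were named in order of adjusted p. Idh1, Dld, Pdhx, Hif1a, Txnip, Myc, Mertk, Phka2, Phkb and the overlapping neighbours were added after their values were seen. The same holds for Nnt, Me2, Idh3b, Sdhc, Sdhd, Prkaa1, Prkab1 and Prkag1.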

Additional observations from a re-analysis of the deposited data

How the results depend on the processing

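The count of members called was 6, and 5 without a filter on low values, 6 at a mean of at least 50, 4 at an adjusted p under 0.01, 6 and 5 with fold changes centred on the summed means with and without Lyz2, 5 centred on the median and 3 with a fold of at least 1.2. Members called higher numbered 1, and 3 (2 without Lyz2) when centred on the summed means. Members called lower numbered 5, but 3 at an adjusted p under 0.01, 3 and 3 under both centrings on the summed means and 2 with a fold of at least 1.2. The calls of G6pdx, Pfkfb4 and Pfkp held under all 7 alternatives and that of Hk1 under all but the minimum fold. When centred on the summed means, 5 uncalled members crossed 0, with log2 values with and without Lyz2 of 0.0464 and 0.0360 for Hk3, 0.0211 and 0.0107 for Gpi1, 0.0179 and 0.00750 for Pgam1, 0.0257 and 0.0153 for Pgd, and 0.0507 and 0.0404 for Dlat, which follows from the shift of -0.06 or -0.05. Calls in the other pathway lists ran from 24 to 39 around 35. Over all genes, 1651 higher and 1712 lower became 2339 and 960 when centred on the summed means (2197 and 1046 without Lyz2), 1047 and 1009 at an adjusted p under 0.01, and 1411 and 1021 with a fold of at least 1.2.

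Per kb of coding sequence in place of exon, the share of the family was 71.2% for Hk3, 97.8% for Aldoa, 85.2% for Slc2a1 and 83.9% for G6pdx, which stayed first, and 32.8% for Pfkl and 48.1% for Pfkfb4, which fell behind Pfkp (55.9%) and Pfkfb3 (51.9%). With 8-nucleotide sites alone, 6 in place of 14 members held a seed match. Refits without single libraries were not run, and depth is unknown here. No paired analysis was possible because no column of library values names its sample or its replicate.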
